A study of Mus musculus with 36 samples.

Results

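Zinc handling in mouse embryonic stem cells was followed through 8 genes in RNA-seq libraries from an experiment on blue light. They were taken by gene symbol from the count table, 8 of its 54842 genes, and all 8 passed the expression filter that left 18193 genes for testing. The set holds the zinc exporter gene Slc30a1, the Golgi zinc transporter gene Slc30a5, the zinc importer genes Slc39a1 and Slc39a10, the metallothionein genes Mt1 and Mt2, the zinc-sensing transcription factor gene Mtf1, and Cox17, which encodes a copper chaperone. LiTEC is the study's light-controlled construct, and the design set cells transfected with it beside wild-type (WT) cells to ask what the light does to transcription with and without it. There were 12 groups of 3 libraries: lit LiTEC cells, dark LiTEC cells, lit WT cells and dark WT cells, each at 0, 1 and 4 h. Lit cells were exposed to blue LED light for 30 min and dark cells were not, and times run from the end of the exposure. All cultures, WT included, had received doxycycline at 2 µg/ml for 2 days and grew without serum in medium with a MEK inhibitor, a GSK3β inhibitor and leukaemia inhibitory factor. The labels do not say how many clones the LiTEC cells represent.

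Cells hold free zinc at a very low level by balancing uptake, storage and export. Transporters of the SLC39 (ZIP) family bring zinc into the cytosol, those of the SLC30 (ZnT) family move it out of the cytosol to the outside or into compartments, and metallothioneins are small cysteine-rich proteins that bind zinc and copper. The zinc finger protein MTF1 binds DNA when zinc is plentiful, at metal response elements in the promoters of Mt1, Mt2 and Slc30a1, and raises their transcription, so that storage and export follow the zinc supply. These 3 mRNAs are therefore widely used as readouts of zinc and of other metals that displace it.

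The promoters of the exporter and of the metallothionein genes are shown because the data bear on whether the 3 mRNAs moved together. Each sequence is the 250 bases before the RefSeq start site in GRCm38.p6, written 5′ to 3′ on the gene's strand, and capitals mark the core of the metal response element, TGCACNC or TGCGCNC, on either strand. Slc30a1 is given as chr1:191906531-191906780 on the plus strand, Mt1 as chr8:94178839-94179088 on the plus strand, and Mt2 as chr8:94172368-94172617 on the plus strand.
Slc30a1: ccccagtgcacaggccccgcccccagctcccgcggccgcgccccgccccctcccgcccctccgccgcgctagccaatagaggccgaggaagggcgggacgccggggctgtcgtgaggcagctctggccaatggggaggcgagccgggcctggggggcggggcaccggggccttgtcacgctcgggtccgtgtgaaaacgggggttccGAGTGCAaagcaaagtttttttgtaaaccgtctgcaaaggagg
Mt1: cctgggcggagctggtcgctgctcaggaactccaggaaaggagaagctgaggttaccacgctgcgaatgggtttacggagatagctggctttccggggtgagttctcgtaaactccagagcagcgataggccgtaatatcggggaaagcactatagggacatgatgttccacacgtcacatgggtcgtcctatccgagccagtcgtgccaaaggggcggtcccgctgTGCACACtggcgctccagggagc
Mt2: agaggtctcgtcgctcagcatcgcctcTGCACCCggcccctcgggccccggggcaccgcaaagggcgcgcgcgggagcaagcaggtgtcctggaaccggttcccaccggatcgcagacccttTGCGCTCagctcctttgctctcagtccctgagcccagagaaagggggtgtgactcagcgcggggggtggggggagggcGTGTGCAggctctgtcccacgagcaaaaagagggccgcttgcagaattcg
Slc30a1 held 2 matches in the 300-base window that also takes in the first 50 transcribed bases, both on the other strand, of which the one printed began at position -43. Mt1 held 3 in that window, of which the one printed began at -23. The other 2 of Mt1 began at 3 and 21, after the RefSeq start. Only these windows were searched, so the counts depend on the start site used and leave out matches further away. Mt2 held 4, of which those printed began at -223, -128 and -50. No 2 of these matches overlapped. Slc30a5 held 1 match, and Slc39a1, Slc39a10 (in both of its windows) and Mtf1 held 0. Among 32817 windows of the same length in the RefSeq table, 25.7% held at least 1 match, 7.12% at least 2, 1.97% at least 3 and 0.518% at least 4. A match is a run of letters and not a measured binding site. Windows were found for 7 of the 8 genes, and none for Cox17.

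**Figure D1:**
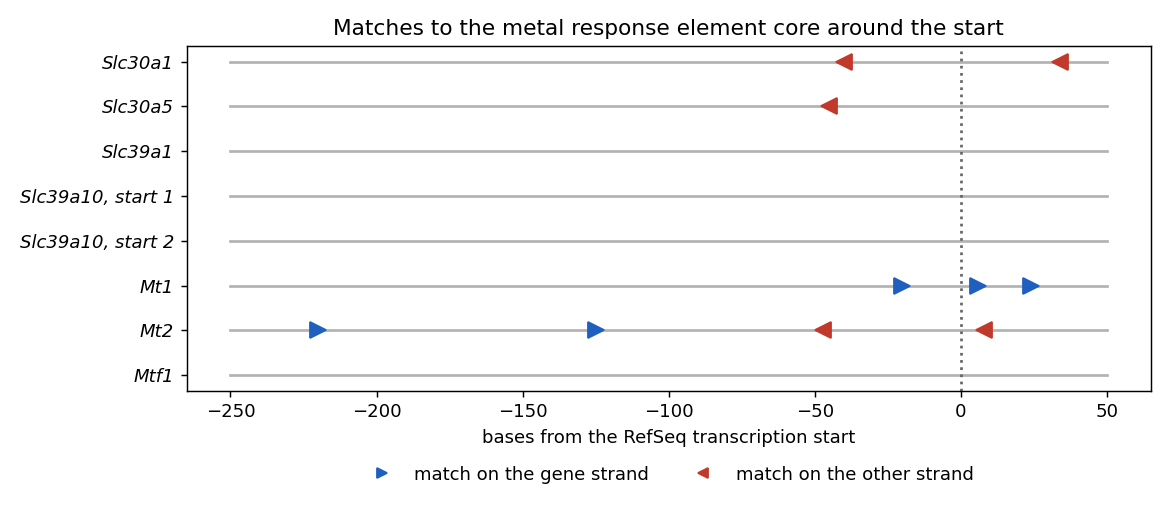
Position of each match to the metal response element core, in bases from the RefSeq start site, in the promoter window of each gene (grey line), with triangles pointing right for the gene's strand and left for the other. Mt2 holds 4 matches, Mt1 3, Slc30a1 2 and Slc30a5 1, and the windows of Slc39a1, Slc39a10 and Mtf1 hold 0.

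Library totals ran from 11132970 to 21842256 counts. Whether the replicates came from different cultures is not stated, so the p-values rest on spread among libraries that may be only technical. Replicate 1 of every group was in batch 1 and replicates 2 and 3 in batch 2. All 8 embryonic stem cell markers passed the filter, and their summed level was 2739 to 4191 CPM (normalised read counts scaled to library size), against 0.264 to 1.86 CPM for 4 trophectoderm markers and 4.77 to 21.5 CPM for 4 neuroectoderm markers. Gm26917, a ribosomal RNA locus, took 26.1% of all counts in 1 library, dark WT replicate 3 of 4 h, against a median of 9.87% over all libraries. The values below that moved most with this library are given with and without it. All CPM values use TMM-scaled library sizes.

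Per kilobase of annotated exon, Mt2 and Mt1 had the highest values of the 8. Their medians over the 36 libraries were 153 CPM per kb for Mt2 and 118 CPM per kb for Mt1. The importer genes followed, at 23.8 for Slc39a1 and 18.6 for Slc39a10, then Slc30a5 at 7.16, Slc30a1 at 5.95, Mtf1 at 3.94 and Cox17 at 2.30 CPM per kb. These values divide by all annotated exon bases. With the basic transcripts alone the medians of Slc30a5 and Cox17 were 16.4 and 3.56 CPM per kb. For Mt1 (1246 bases, also with the basic transcripts) and Cox17 (5773 bases) the annotated exons cover the whole gene. Their values may therefore be too low, and neither the order of Mt2 and Mt1 nor the last place of Cox17 is settled. In GENCODE M21 (GRCm38), Mt2 (chr8:94172664-94173568, plus strand) and Mt1 (chr8:94179082-94180327, plus strand) are neighbours with 5513 bases between them. An antisense gene, Gm45774, shares 73.5% of the exon bases of Mt2, but it had 2 to 14 counts per library, against 1039 to 2216 for Mt2.

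**Figure D2:**
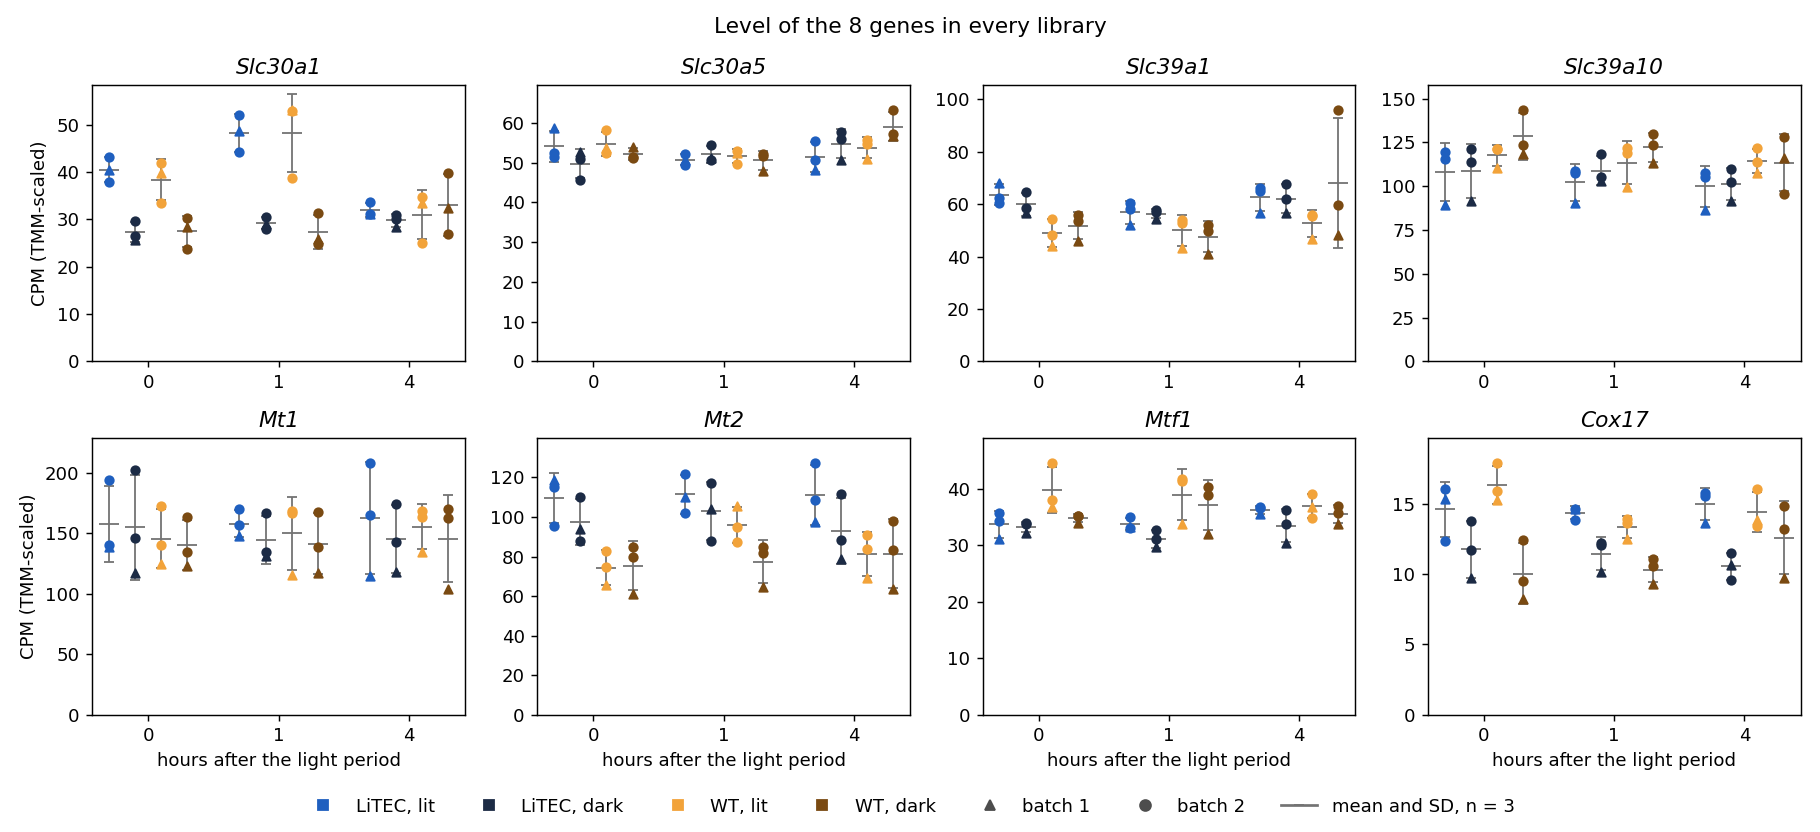
CPM of each of the 8 genes in every library, by hours after the light period, with each lit group left of its dark group, triangles for batch 1, circles for batch 2 and grey bars for the mean and SD (n = 3). Slc30a1 is the gene whose 6 lit libraries all lie above the 6 dark libraries at both 0 and 1 h, and Mt2 is higher in most LiTEC libraries.

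Slc30a1 encodes ZnT1, the transporter that carries zinc out of the cell across the plasma membrane (chr1:191906767-191913247, plus strand). Its mRNA rose with light in both genotypes at 0 h and at 1 h, and by 4 h the lit and dark levels lay together. At 0 h it had 40.3, 37.9 and 43.2 CPM in lit LiTEC cells, against 25.6, 26.5 and 29.7 CPM in dark LiTEC cells. In WT cells at that time it had 39.7, 33.5 and 41.8 CPM with light, against 28.3, 23.8 and 30.3 CPM in the dark. All 6 lit libraries stood above all 6 dark ones. The log2 fold change, lit over dark, was 0.57 ± 0.13 (SE) in LiTEC cells and 0.49 ± 0.13 in WT cells (edgeR's quasi-likelihood test with Benjamini-Hochberg adjustment over all tested genes, adjusted p = 0.0202 and 0.0279). Both calls rested on few libraries. The LiTEC one was lost without dark replicate 1, 2 or 3 or lit replicate 1 or 3 (0.52 to 0.63, adjusted p = 0.0527 to 0.132), and the WT one without dark replicate 1 or 2 or lit replicate 1 or 3 (0.38 to 0.51, adjusted p = 0.0678 to 0.203).

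At 1 h the lit levels of Slc30a1 were the highest of any group. Lit LiTEC cells had 48.6, 44.1 and 52.1 CPM, against 29.1, 30.6 and 28.0 CPM in dark LiTEC cells. Lit WT cells had 53.1, 38.8 and 52.8 CPM, against 25.8, 24.8 and 31.3 CPM in dark WT cells. Here too the 6 lit and the 6 dark libraries did not overlap. The log2 fold change was 0.72 ± 0.13 in LiTEC cells and 0.81 ± 0.13 in WT cells (edgeR, adjusted p = 0.00368 and 0.000539), which are folds of 1.65 and 1.76. The WT call held whichever library was left out, and the LiTEC call was lost without lit replicate 3 or dark replicate 3 (0.66 to 0.69, adjusted p = 0.0632 and 0.0643).

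At 4 h lit LiTEC cells had 31.1, 31.1 and 33.6 CPM of Slc30a1, against 28.3, 31.0 and 30.1 CPM in dark LiTEC cells. Lit WT cells had 33.4, 25.0 and 34.6 CPM, against 32.3, 26.8 and 39.7 CPM in dark WT cells. The lit LiTEC libraries lay just above the dark ones and the WT libraries overlapped, with log2 fold changes of 0.10 ± 0.13 and -0.08 ± 0.13 (edgeR, adjusted p = 0.954 and 0.908). Without the library rich in Gm26917, dark WT replicate 3, the WT value was 0.08 ± 0.13 (adjusted p = 0.989). Averaged over both genotypes, a comparison that reuses the same libraries, the light effect was 0.53 ± 0.09 at 0 h, 0.77 ± 0.09 at 1 h and 0.01 ± 0.09 at 4 h (edgeR, adjusted p = 0.00024, 1.07e-06 and 0.988). Within batch 1, with 1 library a group, these averages were 0.57, 0.89 and 0.09, and within batch 2 they were 0.50, 0.71 and -0.03. In a fit of batch 2 alone, with 2 libraries a group, the average at 1 h was still called (adjusted p = 0.0262), and that at 0 h (adjusted p = 0.0801) and all calls within 1 genotype were not. The decline between 1 and 4 h was itself called: the effect at 4 h minus that at 1 h was -0.76 ± 0.13 (edgeR, adjusted p = 0.00187), -0.80 in batch 1 and -0.74 in batch 2, although batch 2 alone gave no call (adjusted p = 0.496). The effect at 1 h minus that at 0 h was 0.24 ± 0.13 and was not called (edgeR, adjusted p = 0.609).

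No difference between the genotypes was called in the response of Slc30a1 to light. The LiTEC effect minus the WT effect was 0.09 at 0 h (95% interval -0.28 to 0.46), -0.09 at 1 h (-0.46 to 0.27) and 0.18 at 4 h (-0.19 to 0.55). These intervals leave room for differences in either direction, and without the library rich in Gm26917 the value at 4 h was 0.01 ± 0.18. Ordered by mean, the 12 groups ran from 48.3 ± 3.97 CPM in lit LiTEC cells at 1 h to 27.3 ± 2.16 CPM in dark LiTEC cells at 0 h (SD, n = 3). The 4 lit groups of 0 and 1 h held the first 4 places, although each group in the order overlapped the next within 1 SD. The antisense gene 1700034H15Rik shares 8.92% of the exon bases of Slc30a1 and had 28 to 83 counts per library, against 382 to 978 for Slc30a1.

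**Figure D3:**
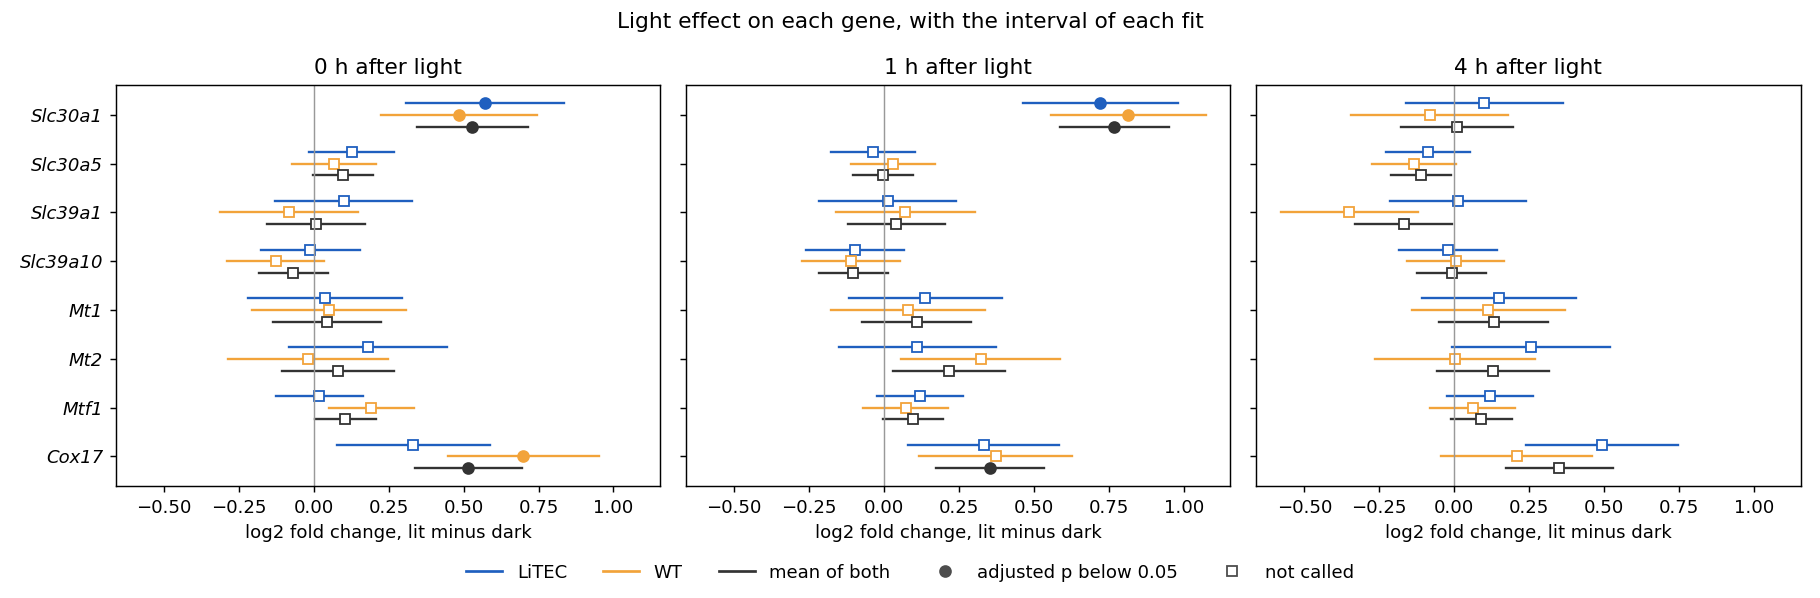
Log2 fold change, lit over dark, of each of the 8 genes at 0, 1 and 4 h, for LiTEC cells, WT cells and the mean of both, with lines for the 95% interval and filled circles for adjusted p below 0.05. Slc30a1 lies between 0.49 and 0.81 at 0 and 1 h and between -0.08 and 0.10 at 4 h, whereas Mt1 lies between 0.04 and 0.15 throughout.

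The counts of called genes set these values in context. The 8 genes, and the lists counted further below, were chosen with earlier results of these data known. A count above the share of all genes is therefore no evidence about the set. In LiTEC cells 1 of the 8 genes, Slc30a1, was called higher with light and 0 lower at 0 h, where 0.401% of all tested genes were called higher and 0.533% lower. At 1 h in LiTEC cells it was again 1 of 8 higher and 0 lower, where 0.0824% of all genes were higher and 0.033% lower. In WT cells 2 of the 8, Slc30a1 and Cox17, were called higher and 0 lower at 0 h, beside 1.66% higher and 1.2% lower of all genes. At 1 h in WT cells Slc30a1 alone was called, 1 of 8 higher and 0 lower, beside 0.176% higher and 0.11% lower. Over both genotypes Slc30a1 and Cox17, 2 of 8, were called higher and 0 lower at 0 h, beside 2.76% higher and 2.61% lower, and likewise at 1 h, beside 0.676% higher and 0.467% lower. At 4 h edgeR called 0 of the 8 in LiTEC cells (0.011% of all genes in either direction), in WT cells (0% of all genes) and over both genotypes (0.275% of all genes), with 1, 1 and 3 of the 8 at an unadjusted p below 0.05 and 0, 0 and 1 called by DESeq2. The median light effect of the 8 over both genotypes was 0.09, 0.10 and 0.05 at 0, 1 and 4 h, beside 0.00 for all tested genes at each time. For the difference of the light effect between LiTEC and WT, edgeR and DESeq2 called 0 of the 8 at each time (0.022% of all genes at 0 h and 0% at 1 and 4 h), with 1, 0 and 1 of the 8 at an unadjusted p below 0.05. The change of the light effect was called lower for 1 of the 8 between 1 and 4 h (0.176% of all genes) and for 0 of the 8 between 0 and 1 h (edgeR and DESeq2, 1.14% of all genes in either direction, 0 of the 8 at an unadjusted p below 0.05).

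The metallothionein genes, which store zinc and share the metal response element with Slc30a1, gave no called light effect, except for Mt2 at 1 h when no expression filter was applied. At 1 h, where Slc30a1 was highest, Mt1 had 147, 170 and 157 CPM in lit LiTEC cells, against 131, 167 and 135 CPM in dark LiTEC cells. In WT cells it had 115, 168 and 167 CPM with light, against 117, 167 and 139 CPM in the dark. The lit and dark libraries overlapped in both genotypes. Within each replicate number the lit library was the higher one, except for replicate 1 of WT cells. Averaged over both genotypes, Mt1 differed by 0.04 ± 0.09 at 0 h, 0.11 ± 0.09 at 1 h and 0.13 ± 0.09 at 4 h on the log2 scale (edgeR, adjusted p = 0.89, 0.757 and 0.629). The upper ends of the 95% intervals were 0.23, 0.29 and 0.31, and that of Mt1 at 1 h is below the lower end of the interval for Slc30a1 at 1 h, 0.59. Mt1 was higher in batch 2, with a median of 166 CPM (n = 24), against 121 CPM in batch 1 (n = 12).

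Mt2 came nearest to a light effect in WT cells at 1 h. There it had 105, 87.3 and 95.0 CPM with light, against 64.8, 85.1 and 81.9 CPM in the dark, and the 2 sets of libraries did not overlap. Its log2 fold change was 0.32 ± 0.13 (edgeR, adjusted p = 0.51), with 0.70 in batch 1 and 0.13 in batch 2, and without lit replicate 1 it was 0.17. With no expression filter it was called (0.31, adjusted p = 0.0181). In LiTEC cells at 1 h it had 110, 122 and 102 CPM with light, against 104, 117 and 88.0 CPM in the dark, and these overlapped. Within each replicate number, however, the lit library at 1 h was the higher one in both genotypes. Averaged over both genotypes the difference was 0.08 ± 0.09, 0.22 ± 0.09 and 0.13 ± 0.09 at 0, 1 and 4 h (edgeR, adjusted p = 0.763, 0.333 and 0.656), and with no expression filter the one at 1 h was called (0.21, adjusted p = 0.0135). Mt3, a metallothionein known from the brain, averaged 1.86 CPM, and its average light effects of 0.35, 0.36 and 0.49 at 0, 1 and 4 h were not called (edgeR, adjusted p = 0.426, 0.575 and 0.323). Mt4 was too low to be tested, with 51 counts in all 36 libraries together.

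Mtf1 encodes the zinc sensor itself (chr4:124802104-124849800, plus strand). In WT cells at 0 h it had 36.8, 44.5 and 38.0 CPM with light, against 34.0, 35.2 and 35.3 CPM in the dark. The lit libraries were all higher, but the log2 fold change of 0.19 ± 0.07 was not called (edgeR, adjusted p = 0.151). In LiTEC cells at 0 h it was 0.02 ± 0.07 (adjusted p = 0.966), with 31.1, 34.3 and 35.7 CPM with light, against 32.2, 33.7 and 33.9 CPM in the dark. The other 4 light effects of Mtf1 lay between 0.06 and 0.12, and none was called.

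The importer genes gave no called light effect either, with 1 exception for Slc39a1 given below. Slc39a10 encodes a plasma membrane zinc importer and is known in mouse cells as a gene that MTF1 represses (chr1:46807544-46892852, minus strand). Its light effects were between -0.13 and 0.00 over the 6 comparisons within a genotype, of which the WT value at 4 h was 0.00 and, without the library rich in Gm26917, -0.13, and the average over both genotypes at 1 h was -0.10 ± 0.06 (edgeR, adjusted p = 0.537). Slc39a1 encodes a plasma membrane importer found in most cell types (chr3:90248172-90253612, plus strand). In WT cells at 4 h it had 46.8, 55.4 and 55.9 CPM with light, against 48.3, 59.8 and 95.9 CPM in the dark. The 95.9 CPM is in the library rich in Gm26917. With it the log2 fold change was -0.35 ± 0.11 (edgeR, adjusted p = 0.423), and without it -0.06 ± 0.08 (adjusted p = 0.989). With the library kept and no expression filter it was called lower (-0.35, adjusted p = 0.0141).

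Slc30a5 encodes ZnT5, which supplies zinc to enzymes of the secretory pathway (chr13:100802648-100833427, minus strand). It was not called for light at any time. Over both genotypes its light effect was 0.10 ± 0.05 at 0 h, -0.00 ± 0.05 at 1 h and -0.11 ± 0.05 at 4 h (edgeR, adjusted p = 0.331, 0.995 and 0.404). In WT cells at 4 h the lit libraries, at 50.8, 54.7 and 55.7 CPM, lay below the dark ones, at 56.6, 57.1 and 63.2 CPM, with a log2 fold change of -0.13 ± 0.07 (edgeR, adjusted p = 0.633). The 63.2 CPM is in the library rich in Gm26917. Without that library the WT value was -0.08 ± 0.07 (adjusted p = 0.989) and the average over both genotypes at 4 h was -0.09 ± 0.05 (adjusted p = 0.597).

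Cox17 encodes the chaperone that carries copper to cytochrome c oxidase assembly in mitochondria (chr16:38346991-38352763, plus strand). It was the only other gene of the 8 to be called for light, and its counts were the lowest, 129 to 301 per library. The protein-coding gene Gm21987, on the same strand, shares 4.45% of the exon bases of Cox17 and had 0 counts in every library. How reads over the shared bases were counted is not given in the sources used here. At 0 h lit WT cells had 15.3, 15.9 and 17.9 CPM, against 8.20, 12.5 and 9.49 CPM in dark WT cells. Lit LiTEC cells had 15.4, 12.4 and 16.1 CPM, against 9.75, 13.8 and 11.8 CPM in dark LiTEC cells. The WT libraries did not overlap and the LiTEC libraries did. The log2 fold change was 0.70 ± 0.12 in WT cells (edgeR, adjusted p = 0.00059) and 0.33 ± 0.13 in LiTEC cells (adjusted p = 0.277). The LiTEC effect minus the WT effect was -0.37 ± 0.18, which was not called (edgeR, adjusted p = 0.804), so no difference between the genotypes is shown. The WT call at 0 h held whichever library was left out and was lost in batch 2 alone (0.61, adjusted p = 0.0722).

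At 4 h Cox17 was not called, although its values stayed higher with light on average. Lit LiTEC cells then had 13.7, 15.5 and 15.8 CPM, against 10.6, 11.5 and 9.56 CPM in dark LiTEC cells, which did not overlap. Lit WT cells had 13.8, 16.1 and 13.4 CPM, against 9.76, 13.2 and 14.8 CPM in dark WT cells, which did. The 14.8 CPM is in the library rich in Gm26917, and without it the WT libraries did not overlap. The WT log2 fold change was 0.21 ± 0.12 with that library (edgeR, adjusted p = 0.684) and 0.31 ± 0.13 without it (adjusted p = 0.862). Over both genotypes the light effect of Cox17 was 0.52 ± 0.09 at 0 h, 0.35 ± 0.09 at 1 h and 0.35 ± 0.09 at 4 h (edgeR, adjusted p = 0.000213, 0.0336 and 0.0795). Without the library rich in Gm26917 the value at 4 h was 0.40 ± 0.09 (adjusted p = 0.0559). Within batch 1 the values at 0 and 1 h were 0.78 and 0.48, and within batch 2 they were 0.39 and 0.29. Its effect at 4 h minus that at 1 h was -0.00 ± 0.12 (95% interval -0.25 to 0.25). The call at 1 h was lost in 11 of 12 fits that left out 1 library of that time, all but the one without lit LiTEC replicate 2, with values of 0.31 to 0.36 (adjusted p = 0.0529 to 0.13). In batch 2 alone the call at 0 h was lost too (0.38, adjusted p = 0.0891), and at 4 h DESeq2, a replicate block and dropping the expression filter each gave a call (adjusted p = 0.0308 to 0.0455).

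Wider families were counted in lists of the zinc and copper genes. Of all tested genes, 2.76% were called higher and 2.61% lower at 0 h over both genotypes. At 1 h the shares were 0.676% and 0.467%, and at 4 h 0.275% were called in either direction. Of the 10 SLC30 genes, 9 were tested and the light effect over both genotypes was called higher for 1, 2 and 1 of them at 0, 1 and 4 h and lower for 0. The 1 at 0 h was Slc30a1, the 2 at 1 h were Slc30a1 and Slc30a2, and the 1 at 4 h was Slc30a2. Of the 14 SLC39 genes, 12 were tested and 0 were called in either direction at any time. Beside shares so low, 0 calls in a list this short says little about the importers. Of the 14 copper genes, all tested, 1, 1 and 0 were called higher, in each case Cox17, and 0 lower. The median light effect over both genotypes at 1 h was 0.08 for the SLC30 list, -0.02 for the SLC39 list and 0.03 for the copper list, beside 0.00 for all tested genes.

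Slc30a2 encodes ZnT2, a vesicle transporter best known from the mammary gland. At 1 h it had 18.9, 38.8 and 44.2 CPM in lit LiTEC cells, against 17.1, 34.9 and 30.5 CPM in dark LiTEC cells. In WT cells it had 16.7, 35.1 and 40.4 CPM with light, against 12.3, 30.1 and 29.5 CPM in the dark. Replicate 1, which is batch 1, was lower in every group, and within each replicate number the lit library was the higher one. Over both genotypes the light effect was 0.23 ± 0.07 at 0 h, 0.33 ± 0.07 at 1 h and 0.32 ± 0.07 at 4 h (edgeR, adjusted p = 0.0573, 0.0104 and 0.042), with 0.40, 0.29 and 0.42 in batch 1 and 0.15, 0.34 and 0.27 in batch 2. At 0 h it was called with a replicate block (0.22, adjusted p = 0.0325) and without lit WT replicate 2 (0.28, adjusted p = 0.0172), and in WT cells alone, at 0.34 (adjusted p = 0.0582), with a replicate block and by DESeq2 (adjusted p = 0.0295 to 0.0355). In batch 2 alone and with no batch term the call at 1 h was lost (adjusted p = 0.128 to 0.986), and in these settings and the compared groups only so was that at 4 h (adjusted p = 0.209 to 0.923). The call at 1 h was lost without replicate 3 of dark LiTEC, lit LiTEC or lit WT cells (0.29 to 0.30, adjusted p = 0.0502 to 0.0609), and that at 4 h in 10 of 12 such fits, all but those without lit WT replicate 2 or dark WT replicate 3 (0.26 to 0.33, adjusted p = 0.0615 to 0.178).

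Heat shock genes, which encode chaperones for unfolded proteins, were counted as a context for the same libraries. Of 13, 4 were called higher with light over both genotypes at 0 h, 3 at 1 h and 0 at 4 h, and 0 lower. Of all tested genes, 2.76% were higher and 2.61% lower at 0 h, and 0.676% and 0.467% at 1 h. At 4 h it was 0.275% in either direction. Over both genotypes the light effect was 4.37 ± 0.38 for Hspa1a at 0 h and 4.64 ± 0.37 at 1 h on the log2 scale, and -0.04 ± 0.49 at 4 h. At 0 h Hspa1a averaged 5.15 ± 2.35 CPM in lit LiTEC cells, against 0.713 ± 0.357 CPM in dark LiTEC cells, and 49.5 ± 20.8 CPM in lit WT cells, against 0.814 ± 0.232 CPM in dark WT cells (SD, n = 3). The light effect was 2.89 ± 0.60 in LiTEC cells and 5.85 ± 0.48 in WT cells, and the difference of -2.96 (95% interval -4.90 to -1.02) was not called (edgeR, adjusted p = 0.68). For Dnajb1, a co-chaperone gene, it was 0.68 and 0.70 at those times and 0.10 at 4 h. Hspa1a and Hspa1b are near-identical copies whose counts could be split between them. Summed stem cell markers were 2739 to 3629 CPM in lit WT cells at 0 h, against 3050 to 4097 CPM in dark WT cells, and 2979 to 3781 CPM in lit LiTEC cells, against 3074 to 3981 CPM in dark LiTEC cells. Over both genotypes at 0 h, 3 of these 8 markers were called lower with light and 0 higher, beside 2.61% lower and 2.76% higher of all genes. The part of either in the light effect on Slc30a1 and Cox17 was not tested, and in bulk RNA fewer cells of a type and less RNA per cell cannot be told apart.

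Likeness of pattern was described with Pearson's r over the 12 group means of log2 (CPM + 0.5), centred within each batch, among 9815 genes averaging 5 CPM or more. The 6 genes most like Slc30a1 were Zfand2a (0.88), Rbm12b1 (0.88), Ppp1r15b (0.84), Hspa1a (0.83), Hspa1b (0.83) and Traf6 (0.82). Zfand2a encodes a proteasome-associated zinc finger protein known for its induction by arsenite. It averaged 22.3 ± 2.77 CPM in lit LiTEC cells at 0 h, against 16.1 ± 1.89 CPM in dark LiTEC cells, and 20.7 ± 2.73 CPM in lit WT cells, against 14.6 ± 1.16 CPM in dark WT cells (SD, n = 3). Its light effect over both genotypes was 0.49 ± 0.07, 0.30 ± 0.07 and 0.02 ± 0.07 at 0, 1 and 4 h. That of Rbm12b1, an RNA-binding protein gene, was 0.22 ± 0.11, 0.50 ± 0.11 and -0.21 ± 0.11.

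The 6 genes most like Mt1 were Taf1c (0.85), Zswim1, Golga7, Ly6g6e, Zfp330 and Csf2ra (each 0.84). None of them was among the 6 most like Slc30a1. Lists this short from so many candidates can easily share none, so nothing is concluded from that. Mt1 and Mt2 had an r of 0.72 with each other, which placed Mt2 61st for Mt1. Slc30a1 had an r of 0.47 with Mt1, 0.41 with Mt2, 0.30 with Mtf1 and -0.29 with Slc39a10. Among the 9815 genes these placed Mt1 342nd, Mt2 542nd, Mtf1 1128th and Slc39a10 8766th for Slc30a1. Among so many candidates high values of r arise from the search alone, and all points share libraries, so r is given as a description.

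**Figure D4:**
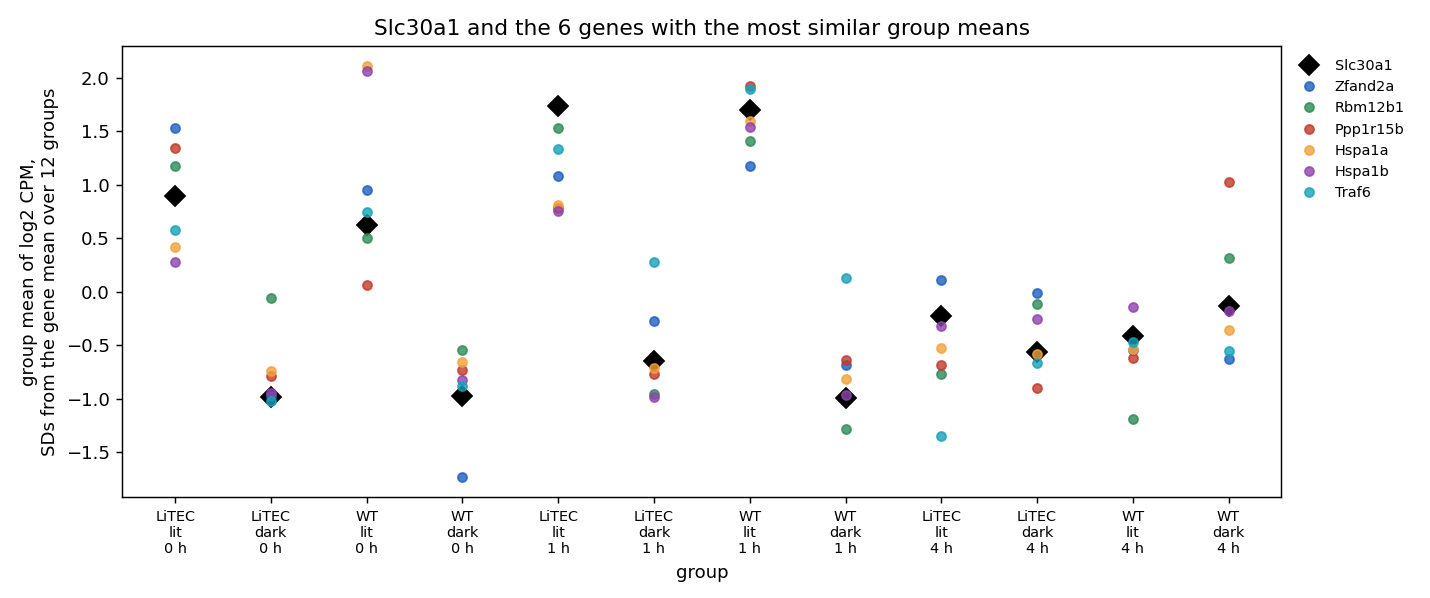
Group mean of batch-centred log2 (CPM + 0.5) in each of the 12 groups, in SDs from the gene's own mean over the groups, for Slc30a1 (diamonds) and the 6 genes most like it (circles). In the 4 lit groups of 0 and 1 h all 7 genes lie above their own mean, Ppp1r15b in lit WT cells at 0 h by only 0.0045 on the log2 scale. The 6 genes were picked for likeness over these same 12 groups, so the choice largely fixed this.

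LiTEC and WT cells were also compared in the dark, with 9 libraries each. These span 0, 1 and 4 h and both batches, so the SDs below take in time and batch. With the number of LiTEC clones unstated, the p-values measure spread among libraries and not among independent lines. Nearly as many genes differed as did not: 23.9% of all tested genes were called higher and 23.7% lower in LiTEC cells. Of the 8 genes 1 was higher and 2 were lower, a share no larger than this background. Mt2 was higher, at 97.8 ± 13.3 CPM in LiTEC cells and 78.1 ± 12.3 CPM in WT cells (SD, n = 9 each). Its lowest, median and highest values were 78.6, 94.0 and 117 CPM in LiTEC cells, against 61.2, 81.9 and 98.0 CPM in WT cells, and the ranges overlapped. The log2 fold change was 0.33 ± 0.08 (edgeR, adjusted p = 0.000431), 0.54 in batch 1 and 0.23 in batch 2. The neighbouring Mt1 was not called, at 148 ± 28.1 CPM in LiTEC cells and 142 ± 24.4 CPM in WT cells, with 0.06 ± 0.07 (edgeR, adjusted p = 0.54). Over lit and dark libraries together, there were 54.5 to 85.9 counts of Mt2 per 100 of Mt1 in LiTEC cells, with a median of 66.2, against 48.1 to 91.4 in WT cells, with a median of 53.0 (18 libraries each). The 91.4 was a single library, lit replicate 1 of 1 h, and the next highest in WT cells was 60.8.

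Slc39a10 and Mtf1 were lower in dark LiTEC cells. Slc39a10 averaged 106 ± 10.6 CPM in LiTEC cells and 121 ± 13.0 CPM in WT cells, with ranges of 91.3 to 121 and 95.8 to 143 CPM that overlapped. Its log2 fold change was -0.20 ± 0.05 (edgeR, adjusted p = 0.00071), -0.29 in batch 1 and -0.14 in batch 2. Mtf1 averaged 32.6 ± 2.06 CPM in LiTEC cells and 35.8 ± 2.60 CPM in WT cells, with -0.13 ± 0.04 (edgeR, adjusted p = 0.00665). These are small changes, and the calls of Mt2, Slc39a10 and Mtf1 held whichever of the 18 libraries was left out. For Slc39a1 the difference was 0.12 ± 0.06 and not called (edgeR, adjusted p = 0.147), but without the dark WT library rich in Gm26917 it was 0.22 ± 0.04 (adjusted p = 9.51e-05). Slc30a1 and Cox17, the genes called for light, had differences of -0.02 ± 0.08 and 0.05 ± 0.07 in the dark and were not called.

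**Figure D5:**
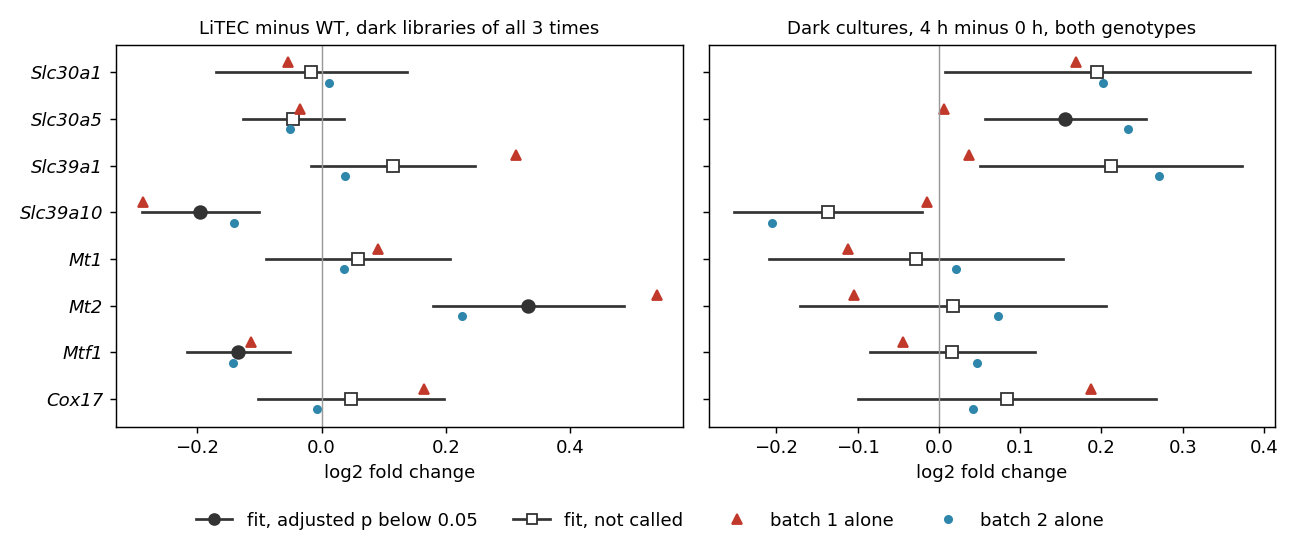
Log2 fold change of each of the 8 genes for LiTEC over WT cells in the dark and for dark cells at 4 h over 0 h, with lines for the 95% interval, triangles for batch 1 alone and small circles for batch 2 alone. Mt2 lies at 0.33 for LiTEC over WT cells, Slc39a10 at -0.20 and Mtf1 at -0.13, and Slc30a5 lies at 0.16 for 4 h over 0 h.

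In the wider families genes were called in both directions between the genotypes, in shares that are read against the 23.9% higher and 23.7% lower of all tested genes. In the SLC30 list 3 of 9 genes were higher in dark LiTEC cells, Slc30a2 (0.24 ± 0.06), Slc30a4 (0.42 ± 0.16) and Slc30a9 (0.44 ± 0.05), and 2 were lower, Slc30a3 (-0.78 ± 0.14) and Slc30a7 (-0.19 ± 0.04). In the SLC39 list 1 of 12 was higher, Slc39a14 (0.39 ± 0.09), and 3 were lower, Slc39a8 (-1.87 ± 0.29), Slc39a9 (-0.15 ± 0.05) and Slc39a10. In the copper list 2 of 14 were higher, Atp7b (0.28 ± 0.10) and Commd1 (0.21 ± 0.07), and 5 were lower, among them the copper chaperone genes Atox1 (-0.60 ± 0.08) and Ccs (-0.44 ± 0.08) and the copper transporter gene Slc31a2 (-0.62 ± 0.08). The other 2 were Slc31a1 and Cox11 (-0.16 ± 0.04 and -0.25 ± 0.08). The 5 of 9, 4 of 12 and 7 of 14 called are shares near that background. The medians of the lists were -0.02, 0.02 and -0.09, beside 0.00 for all tested genes. The call of Slc30a2 was lost in batch 2 alone and with no batch term (0.16 to 0.22, adjusted p = 0.0756 to 0.545).

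Markers of stem cells and of other cell types were also called between the genotypes, again beside 23.9% higher and 23.7% lower of all genes. Of the 8 stem cell markers 2 were higher and 6 lower in dark LiTEC cells, with a median log2 fold change of -0.21, and 1 of 2 neuroectoderm and 1 of 2 trophectoderm markers tested were lower. The summed level of 6 fibroblast or feeder markers was 2.07 to 4.65 CPM in dark LiTEC cells, against 4.30 to 8.90 CPM in dark WT cells. The 6 primitive endoderm markers summed to 7.93 to 14.9 CPM in dark LiTEC cells, against 5.67 to 9.64 CPM in dark WT cells. Of the 3 fibroblast markers tested 0 were called higher and 2 lower, and of the 5 endoderm markers tested 3 were higher and 1 lower. Among the fibroblast markers, Lum had 2 counts and Dcn 7 counts in all 36 libraries together. The part of these markers in the genotype differences was not tested.

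Time in the dark was tested because it shows what these genes did without light. At 1 h against 0 h, edgeR and DESeq2 called 0 of the 8 (1.31% of all genes in either direction, 0 of the 8 at an unadjusted p below 0.05). At 4 h against 0 h 1 of 8 was called higher, and 0 lower, beside 7.82% higher and 7.65% lower of all genes. This was Slc30a5, whose lowest, median and highest values were 50.6, 56.9 and 63.2 CPM at 4 h, against 45.6, 51.3 and 54.0 CPM at 0 h (n = 6 each). Its log2 fold change was 0.16 ± 0.05 (edgeR, adjusted p = 0.0266), 0.01 in batch 1 and 0.23 in batch 2. The call was lost without dark LiTEC replicate 2 of 0 h, dark LiTEC replicate 2 or 3 of 4 h, dark WT replicate 2 or 3 of 0 h, or dark WT replicate 3 of 4 h (0.13 to 0.15, adjusted p = 0.054 to 0.0981), and with no expression filter or the compared groups only (0.16, adjusted p = 0.0853 to 0.0874). Slc30a1 had 26.8, 30.5 and 39.7 CPM as lowest, median and highest at 4 h, against 23.8, 27.4 and 30.3 CPM at 0 h, and its change of 0.19 ± 0.09 was not called (edgeR, adjusted p = 0.155); without dark WT replicate 2 of 4 h it was 0.26 (adjusted p = 0.0466), and with a replicate block 0.20 (adjusted p = 0.0293). Without the library rich in Gm26917 it was 0.12 ± 0.09 (adjusted p = 0.413). Slc39a1 was at 0.21 ± 0.08 (edgeR, adjusted p = 0.0672), at 0.07 ± 0.05 without the library rich in Gm26917, and called without dark WT replicate 1 or 2 of 4 h (0.27 to 0.29, adjusted p = 0.00717 to 0.0194), with a replicate block and with no expression filter (0.21, adjusted p = 0.00659 to 0.0354). Slc39a10 was at -0.14 ± 0.06 (edgeR, adjusted p = 0.102), and called lower without dark WT replicate 1 of 4 h (-0.18, adjusted p = 0.0237), whereas without the library rich in Gm26917 it was -0.06 ± 0.04 (adjusted p = 0.384). Other SLC30 and SLC39 genes that were called higher at 4 h in the dark were Slc30a3 (0.55 ± 0.17), Slc30a7 (0.21 ± 0.05), Slc39a6 (0.29 ± 0.07) and Slc39a13 (0.38 ± 0.09), and 0 of these lists were called lower. Slc30a2, at -0.20 ± 0.07 (edgeR, adjusted p = 0.064), was called lower without dark WT replicate 1 of 0 h or the library rich in Gm26917 (-0.23, adjusted p = 0.0359 to 0.046) and with a replicate block (-0.19, adjusted p = 0.0355).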

How the data were processed

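The values the authors deposited are raw counts for each gene, from mRNA libraries made with a stranded kit per the labels' protocols. FastQC, featureCounts and the mm10 (GRCm38) build are named in the submitters' processing notes; for the aligner, strand setting, multimapping rule and versions the answer is not given in the sources used here, so counts of overlapping genes and near-identical copies are uncertain. The 8 genes and all lists were chosen with earlier results of these data known. Genes passing edgeR's filterByExpr (minimum count 10) were scaled by TMM, and a single fit of all 36 libraries had 1 mean for each group plus a batch term (23 residual degrees of freedom) by edgeR 4.0.16's quasi-likelihood test in R 4.3.3 with limma 3.58.1, tested on simulated data first. There were 17 comparisons; Benjamini-Hochberg adjustment ran over 18193 genes and a gene was called below 0.05. The SE is the log2 fold change divided by the square root of F. The text names all 8 genes, list members that were called, and the 6 genes most like Slc30a1 and Mt1; Slc30a2 was followed further after its values were seen. Alternatives were a replicate block, no batch term, batch 2 alone, RLE, DESeq2 1.42.0, no expression filter, the compared groups only, leaving out each library, and, chosen after seeing the data, dropping Gm26917 and Gm42418. Coordinates are from GENCODE M21, which matched 53315 of 54842 identifiers.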

Additional observations from a re-analysis of the deposited data

Results flagged for a closer look

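The light effect on Slc30a1 differed between times by a test of the difference itself. Averaged over LiTEC and WT cells, the log2 fold change at 4 h minus that at 1 h was -0.76 ± 0.13 (edgeR, adjusted p = 0.00187). It held in all 24 fits that left out 1 library, between -0.83 and -0.68. In batch 2 alone the value was -0.74 and was not called (adjusted p = 0.496). No group held more than 3 libraries, so no test for single outlying libraries was made.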

How the results depend on the processing

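Of 2672 recomputed values of the 8 genes, 42 lost a call, 14 gained one and 0 changed direction while called. Fewest calls were made in batch 2 alone, which has 2 libraries a group: of the 8 genes it called 0 for light in LiTEC cells at 0 h and at 1 h, 0 in WT cells at 0 h and at 1 h, 0 over both genotypes at 0 h, 1 over both at 1 h and 0 for the change between 1 and 4 h. With no batch term 1 was called in WT cells at 0 h and 1 over both genotypes at 1 h. In fits of the compared groups only, 1 was called in WT cells at 0 h and 0 for dark cells at 4 h against 0 h. With no expression filter 1 was called over both genotypes at 4 h, 2 in WT cells at 1 h and 1 in WT cells at 4 h. DESeq2 called 1 over both genotypes at 4 h, which was Cox17. Leaving out 1 library gave 0 to 1 in LiTEC cells at 0 h and at 1 h, 1 to 2 in WT cells at 0 h, 1 to 2 over both genotypes at 1 h and 0 to 3 for dark cells at 4 h against 0 h. The cause of these shifts beyond smaller samples was not tested. RLE scaling moved 0 of 96 group means by over 1 SD. Dropping the counts of Gm26917 and Gm42418 changed no call of the 8 genes.

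With a replicate block in place of batch, 1 of the 8 was called over both genotypes at 4 h, Cox17 (called also by DESeq2 and with no expression filter, 0.35 with adjusted p = 0.0308 to 0.0455 over the 3), and 3 for dark cells at 4 h against 0 h, and no other count of the 8 changed. Beyond the batch the labels do not say what a replicate number marks. Deviations from the group means of same-numbered libraries correlated above 0.1 in 197 of 198 pairs, and each of the 36 libraries correlated best with its own number, a hint from the data and not from the design.

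Over all genes, light in WT cells at 0 h gave 520 calls, 230 to 430 with 1 library left out and 141 to 870 under the other settings. In WT cells at 4 h there were 0 calls, and 0 to 113 under the other settings.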
